A study of Mus musculus with 24 samples.

Results

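p53 restoration was examined in the Type V lines of a mouse small cell lung cancer (SCLC) model, by setting the Restored against the Control library of each line. Of the 24 RNA-seq libraries of the series, 6 belong to this comparison: Control and Restored libraries of the lines 4711-11, 4716-10 and 4716-14, chosen by their labels for type, treatment and line. Each line was grown from a lung tumor of an Rb1 fl/fl; Trp53 XTR/XTR; Rbl2 fl/fl mouse that had received adenoviral CMV-Cre, so Control and Restored cells share the Cre-deleted Rb1 and Rbl2 alleles. The Trp53 XTR allele carries a gene trap that Cre inverts, which stops p53 expression and marks the cells with EGFP (the TR state). A FlpO-ER recombinase from the Rosa26 locus excises the trap when 4-hydroxytamoxifen (4-OHT) is added, which returns the gene to expression (the R state). Control cells received ethanol vehicle and Restored cells received 4-OHT, each for 72 h. No library given 4-OHT without a restorable allele was analysed here, so effects of 4-OHT itself and of p53 cannot be told apart. The study sorted its lines by what restoration does to them: Type V lines stay viable and Type D lines (4711-1, 4711-18 and 4716-11) lose viability. The Type D pairs and the Type V libraries that also received CsA (cyclosporin A, an immunosuppressant) were used here only where a comparison needed them. A group of 3 lines is a group of 3 tumor-derived cultures, each sequenced once per treatment, and the age of the mice is not given in the labels.

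The p53 protein is a transcription factor that stress signals stabilize. It binds paired copies of a short DNA motif, activates genes for cell cycle arrest, cell death, DNA repair and metabolism, and also activates Mdm2, whose product destroys p53. The p21 protein made from Cdkn1a inhibits cyclin-dependent kinases. In cells with that inhibition the pocket proteins p107 and p130 assemble the DREAM complex, which holds down cell cycle genes through the CHR and E2F motifs of their promoters. SCLC is an aggressive lung tumor that usually has neuroendocrine features.

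Values are TPM, transcript abundances per gene length scaled so that every library has the same sum. Changes are differences of log2(TPM + 1), Restored minus Control, in a limma model with a term for each line, and understate the change of genes with low TPM. A gene was called when its Benjamini-Hochberg adjusted p was under 0.05 and its change at least 1 log2. TPM keeps no depth, so the depth of the libraries is unknown. In the 6 libraries 12065 to 12651 genes reached a TPM of 1, and the 10 most abundant genes took 4.59 to 6.34% of the TPM. Libraries of a group correlated with r of 0.883 to 0.936 over the 14104 genes tested. The libraries are bulk RNA, so fewer cells of a kind and less RNA per cell cannot be told apart.

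Trp53 (GRCm38 chromosome 11, 69580359 to 69591873, plus strand) was measured first as the check of the labels. Its TPM was 13.6, 14.8 and 14.1 in the Control libraries of 4711-11, 4716-10 and 4716-14, in that order, which is kept for all triplets of values in the text. In the Restored libraries it was 189, 214 and 253. The change was 3.85 log2 (SE 0.117, limma adjusted p 6.29e-12), and every Restored library lay above every Control library. Cdkn1a (chromosome 17, 29090976 to 29100727, plus strand) went from 48.3, 37.5 and 72.1 TPM to 1734, 1068 and 1605 TPM. This was a rise of 4.80 log2 (SE 0.133, adjusted p 3e-12), or 27.8-fold on the scale with the pseudocount. Mdm2 (chromosome 10, 117688875 to 117710758, minus strand) went from 69.8, 63.2 and 61.9 TPM to 723, 762 and 554 TPM, a rise of 3.36 log2 (SE 0.131, adjusted p 1.36e-10). For all of these genes the lowest Restored library was above the highest Control library.

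**Figure D1:**
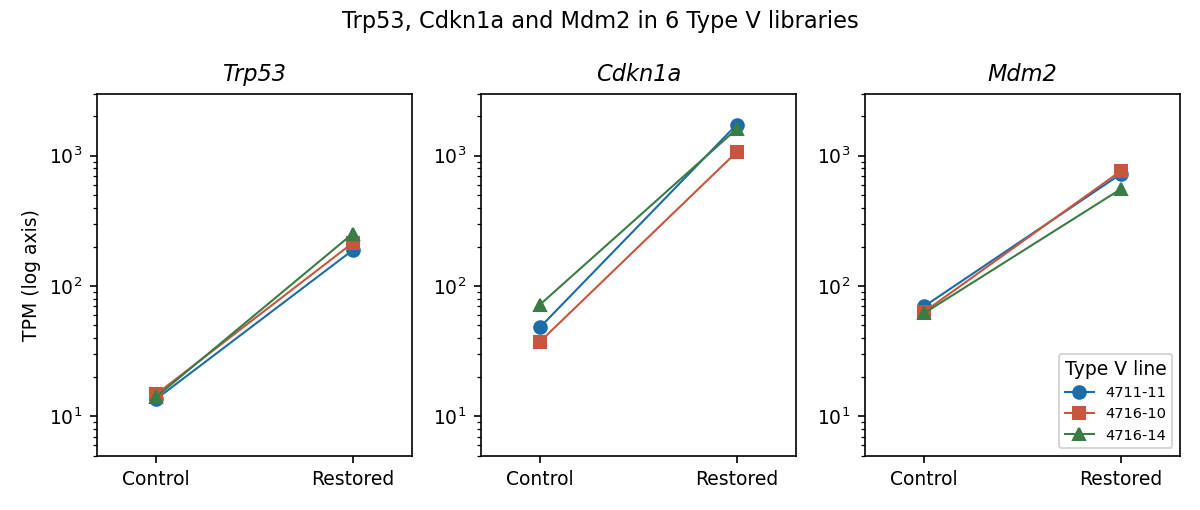
TPM (log axis) of Trp53, Cdkn1a and Mdm2 in the Control and Restored libraries of the 3 Type V lines, with a line joining the 2 libraries of a cell line. The 3 Restored values of each gene lie above its 3 Control values, from 189 to 253 TPM against 13.6 to 14.8 TPM for Trp53.

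Across all genes, 809 of 14104 rose (5.74%) and 413 fell (2.93%), together 1222 (8.66%). At an adjusted p under 0.05 with no limit on size there were 5727 genes, 3219 of them higher in Restored. This number depends on the libraries that share the fit. It was 4122 in the 12 Control and Restored libraries of both types and 1834 in the 6 libraries alone. Without the term for cell line it was 1403. The 6 libraries alone, with that term, gave 598 called rises and 311 called falls. Of the 1222 called genes, 1192 moved the same way in all 3 lines. For 886 of them the 3 Restored libraries all lay on one side of the 3 Control libraries, and 22.3% of all genes tested were separated in this way. Large changes were mostly rises, with 167 rises and 59 falls of at least 2 log2 and 61 rises and 4 falls of at least 3 log2. The median change was 0.05 log2 over all genes, 1.41 over those that rose and -1.38 over those that fell. Without the term for cell line 478 genes rose (3.39%) and 268 fell (1.9%), together 5.29%. Of the called genes 66.2% were rises, and quantile normalization gave 669 rises and 520 falls (56.3% rises).

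The genes that regulate p53 or are regulated by it were grouped by role. The lists were chosen with earlier results of these data known, so the counts describe the members chosen. The lists together hold 101 genes, of which 98 passed the filter on low values. Of these 57 rose (58.2%), 1 fell and 40 were not called. Over all genes tested 5.74% rose and 2.93% fell, the shares to set beside the counts of every list below. Their median change was 1.41 log2, against 0.05 over all genes tested. Without the term for cell line 47 rose.

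Among p53 and its regulators, 6 of 14 genes tested rose and 1 fell. Beside Trp53 and Mdm2, Trp53inp1, whose product helps p53 kill and arrest cells, went from 35.0, 16.8 and 37.7 TPM to 313, 176 and 235 TPM (3.01 log2). Ccng1, which encodes cyclin G1, a partner of Mdm2 in its feedback on p53, went from 129, 122 and 228 TPM to 1527, 824 and 1417 TPM (2.98 log2). Mdm4, the relative of Mdm2 that holds p53 inactive, rose by 1.93 log2. Rbm38, which encodes an RNA-binding protein that limits p53 mRNA translation, rose by 1.38 log2. The feedback genes thus included both the degrader and the inhibitor of p53. Cdkn2a, whose locus encodes p16 and the Mdm2 inhibitor p19Arf, fell from 676, 556 and 838 TPM to 432, 255 and 341 TPM (-1.02 log2, SE 0.152, adjusted p 7.77e-05). The call ended with a change of -0.92 log2 after quantile normalization, of -0.97 log2 without 4716-10 and of -0.88 log2 without 4716-14, and the gene table does not separate the transcripts of the locus.

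Of 14 cell cycle arrest targets tested, 12 rose and 0 fell, with a median of 2.05 log2. Leaving out line 4711-11 left 9 called rises. Btg2, an antiproliferative gene, went from 4.54, 14.3 and 21.0 TPM to 217, 109 and 120 TPM (3.54 log2, SE 0.429). Psrc1, which encodes a spindle-binding protein, rose by 3.16 log2 and Zmat3, which encodes an RNA-binding p53 effector, by 2.36 log2. Rprm, an arrest gene that acts at G2, was 0.218, 0 and 0 TPM in Control and 18.3, 0 and 15.9 TPM in Restored. Its rise thus came from 2 of the lines (2.69 log2, SE 0.686, adjusted p 0.00542), and its adjusted p was 0.0696 without the term for cell line. The members not called were Plk3, at -0.52 log2, and Gadd45a, which was 59.3, 20.7 and 140 TPM in Control and 18.0, 63.8 and 65.8 TPM in Restored. Gadd45a was lower with restoration in 4711-11 and 4716-14 and higher in 4716-10.

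Of 21 cell death targets tested, 14 rose and 0 fell (median 1.36 log2), although Type V lines are those that stay viable. Pidd1, which encodes the scaffold of the PIDDosome, went from 14.3, 15 and 11.2 TPM to 187, 132 and 174 TPM (3.51 log2). Fas, a death receptor, went from 3.99, 130 and 36.8 TPM to 120, 467 and 173 TPM (2.88 log2, SE 0.446). Fas Control levels differed widely between lines and overlapped the Restored levels, and its adjusted p was 0.0727 without the term for cell line. Perp, a desmosomal protein gene linked to p53-dependent death, rose by 2.51 log2 and Phlda3, which encodes an Akt inhibitor, by 2.06 log2. Of the BH3-only genes, whose products release Bax and Bak from their inhibitors, Pmaip1 (Noxa) rose by 1.81 log2 and Bbc3 (Puma) by 1.36 log2. Without the term for cell line the adjusted p of Pmaip1 was 0.067. Bax itself went from 352, 349 and 327 TPM to 981, 764 and 789 TPM (1.29 log2, SE 0.0891). Apaf1, the core of the apoptosome, rose by 1.65 log2. Bid (0.20 log2), Bcl2l11 (0.49 log2) and Casp8 (0.04 log2) were not called.

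Of 20 metabolic and mTOR targets tested, 11 rose and 0 fell, with a median of 1.79 log2. The largest change was in Slc2a9, a urate and sugar transporter gene, which went from 0.0825, 0.691 and 0.729 TPM to 13.4, 17.7 and 51.5 TPM (4.04 log2). Dcxr, which encodes a sugar reductase, went from 14.2, 28.1 and 17.1 TPM to 321, 307 and 338 TPM (4.01 log2). Pltp, a lipid transfer protein gene, rose by 3.49 log2 and Ak1, which encodes an adenylate kinase, by 3.23 log2. Ephx1 and Ddit4l, an epoxide hydrolase gene and an mTOR inhibitor gene, rose by 3 and 2.94 log2. Sesn2, which restrains mTOR under stress, went from 27.2, 11.2 and 14.6 TPM to 92.8, 91.4 and 88.3 TPM (2.39 log2). Its relative Sesn1 did not follow, with 33.9, 12.6 and 31.0 TPM in Control and 15.7, 10.2 and 21.6 TPM in Restored (-0.62 log2, not called). Tigar and Gls2, often cited as metabolic targets of p53, changed by -0.01 and -0.25 log2 and were not called.

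Of 15 DNA repair targets tested, 5 rose and 0 fell (median 0.68 log2). The translesion polymerase gene Polk went from 11.9, 9.97 and 11.7 TPM to 98.0, 59.6 and 84.7 TPM (2.72 log2), and Rev1, of the same pathway, rose by 1.53 log2. Polh, another translesion polymerase gene, was at -0.66 log2 and not called. Ercc5, an endonuclease gene of nucleotide excision repair, rose by 2.33 log2. The damage sensors of that pathway, Ddb2 (0.68 log2) and Xpc (0.39 log2), were not called. Mgmt, which encodes the methyltransferase that repairs alkylated guanine, rose within each line from 41.4, 3.05 and 28.8 TPM to 220, 12.6 and 154 TPM (2.17 log2). Its level differs so much between lines that the adjusted p was 0.575 without the term for cell line.

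Of 18 secreted, membrane and immune targets, 12 rose and 0 fell (median 1.92 log2). Cd80, a costimulatory ligand of T cells, went from 0.960, 0.858 and 2.35 TPM to 48.0, 56.6 and 63.8 TPM (4.63 log2, SE 0.185). Sulf2, an extracellular heparan sulfatase gene, went from 2.89, 15.7 and 61.5 TPM to 372, 240 and 399 TPM (4.37 log2). Tap1, the peptide transporter of MHC class I loading, went from 5.6, 7.38 and 6.65 TPM to 98.3, 63.3 and 96.5 TPM (3.51 log2). Gdf15, a stress cytokine, was lowest in 4711-11 in both states and went from 1.63, 6.14 and 5.09 TPM to 8.94, 58.9 and 66.7 TPM (2.82 log2). Thbs1, a secreted target described in other cells, was not called. The lines went apart, from 842, 594 and 1590.4 TPM to 2449.9, 299.9 and 1019.8 TPM.

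**Figure D2:**
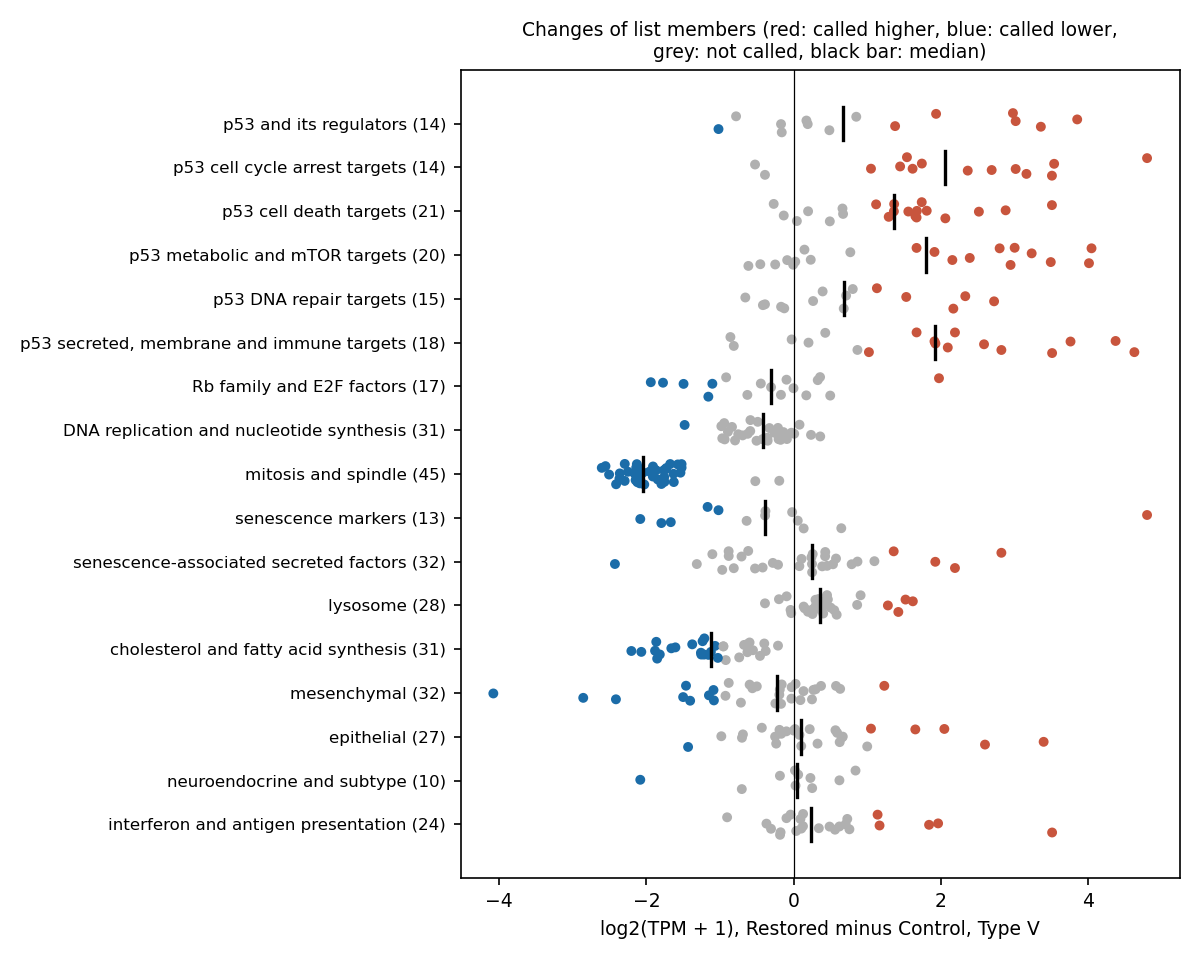
Change of each tested member of the gene lists (log2(TPM + 1), Restored minus Control; red called higher, blue called lower, grey not called, bar median; number of genes tested in parentheses). The p53 lists sit to the right, mitosis and spindle genes lie around a median of -2.05 and cholesterol and fatty acid synthesis genes around -1.12, while DNA replication genes lie around -0.42.

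Genes of mitosis and the spindle fell nearly as a block. Of 45 tested, 43 fell and 0 rose, with a median of -2.05 log2 and of -2.18, -2.03 and -1.83 log2 within the lines. For 43 genes the Restored libraries all lay below the Control libraries, while 22.3% of all genes tested were separated in either direction. Bub1b, a kinase gene of the spindle checkpoint, went from 142, 149 and 126 TPM to 20.0, 24.2 and 21.8 TPM (-2.61 log2, SE 0.262, adjusted p 1.94e-06). Plk1, a mitotic kinase gene, went from 214, 154 and 131 TPM to 30.9, 24.1 and 26.2 TPM (-2.56 log2). Ccna2, which encodes cyclin A2, went from 274, 202 and 208 TPM to 42.7, 32.6 and 42.1 TPM (-2.51 log2). Kif22 and Kif2c, motor genes of the spindle, fell by 2.41 and 2.36 log2, and Bub1, a partner of Bub1b, fell by 2.37 log2. The members not called were the securin gene Pttg1 (-0.20 log2) and Ccnf, which encodes cyclin F (-0.52 log2). The count was 43 in each fit without 1 of the lines.

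DNA replication and nucleotide synthesis genes, which also belong to dividing cells, were called less often than mitosis genes. Of 31 tested 1 fell (3.23%, near the 2.93% of all genes tested). It was Mcm10, a replication initiation factor (44, 46.5 and 32.0 TPM to 11.4, 14.6 and 15.7 TPM, -1.48 log2). Of the 31 changes 27 were below 0, against 6377 of 14104 over all genes tested. The median was -0.42 log2, against -2.05 for the mitosis list. Pcna, the sliding clamp gene, was 467, 511 and 483 TPM in Control and 515, 332 and 633 TPM in Restored. Ccne1, which encodes cyclin E1, was 53.1, 38.1 and 44 TPM in Control and 101, 21.5 and 86.7 TPM in Restored. In both genes 4716-10 was lower with restoration and the other lines were higher. The median of the list was -0.34, -0.99 and 0.02 log2 within the lines. Without 4716-10 it was -0.14 log2 with 1 fall, and without 4716-14 it was -0.69 log2 with 6 falls.

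Of 17 genes of the Rb family and E2F list tested 1 rose and 5 fell, with a median of -0.31 log2. The median was -0.15 log2 without 4711-11 and -0.16 log2 without 4716-10. Foxm1 and Mybl2, which encode transcription factors that activate mitotic genes, fell by 1.94 and 1.77 log2. Foxm1 went from 181, 156 and 168 TPM to 48.1, 38.2 and 43.1 TPM. The atypical repressor gene E2f8 fell by 1.5 log2, the DREAM subunit gene Lin9 by 1.16 log2 and the activator E2f2 by 1.10 log2 (adjusted p 0.0644 without the term for cell line). The other activators were not called, with E2f1 at 0.36 and E2f3 at -0.17 log2. Of the remaining E2F genes, E2f4, the DNA-binding partner of p130, was at -0.63, E2f5 at -0.31, E2f6 at 0.17 and E2f7 at -0.45 log2, and none was called. The other DREAM subunit genes were at -0.92 (Lin54), 0.33 (Lin52) and -0.10 log2 (Lin37), and not called. Rb1, whose floxed allele the Cre deletes in part, was the member that rose, from 11.7, 11.5 and 17.3 TPM to 50.7, 48.1 and 68.8 TPM (1.97 log2, SE 0.122, adjusted p 1.08e-08). These reads come from a locus that is no longer intact and TPM per gene does not show which exons they cover. Rbl2, floxed as well, was at 11.7, 9.91 and 14.6 TPM in Control and 15.7, 15.8 and 20.6 TPM in Restored (0.50 log2, not called). Rbl1, which encodes p107 and was not targeted, was at 0.00 log2.

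**Figure D3:**
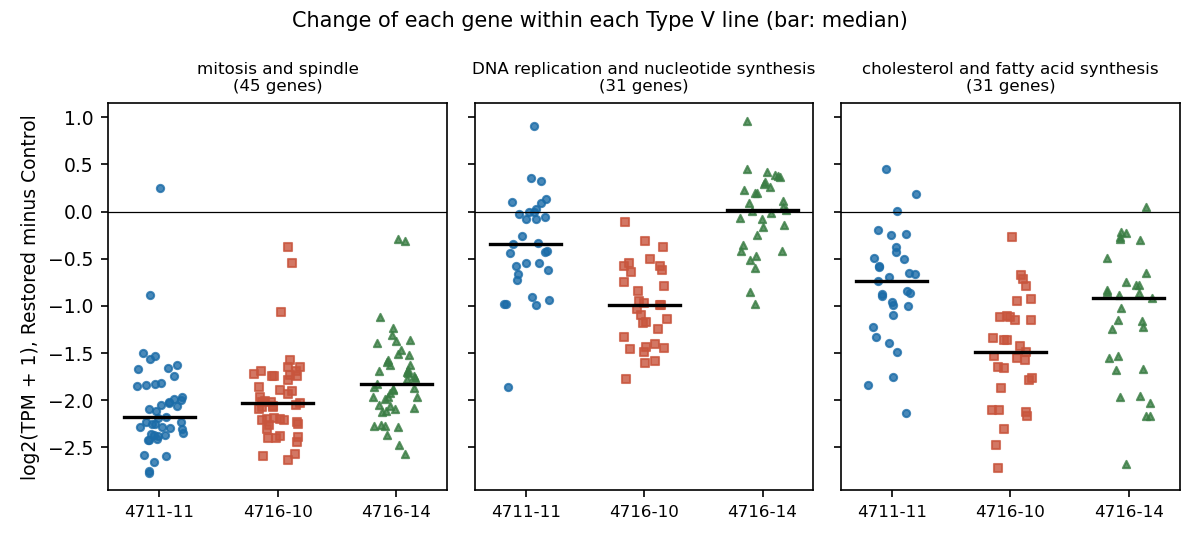
Change of each gene (log2(TPM + 1), Restored minus Control) within the lines 4711-11, 4716-10 and 4716-14 for 45 mitosis, 31 DNA replication and 31 cholesterol and fatty acid synthesis genes, with the median as a bar. Nearly all mitosis genes sit below -1 in all 3 lines, and replication genes are lower in 4716-10 than in the other 2.

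Promoter sequences were read for the genes with the largest changes on either side, because the mitosis and p53 lists differ in the motifs that earlier work ties to them. Windows were 300 bases, from 250 before to 50 after a RefSeq start site (GRCm38.p6), and both strands were searched. Of the 45 mitosis genes 39 had a window, and 30 of their 41 windows (73.2%) held the CHR, TTTGAA. Of the 31 replication genes 25 had one, and the CHR was in 3 of 28 windows (10.7%). Among the 13749 windows of genes tested it was in 12.1%, and among all 32851 windows in 17.9%. The E2F site, searched as GGCGGGAA or TTTGGCGC, was in 0 of 41 mitosis windows and in 11 of 28 replication windows (39.3%), against 4.74% of windows of genes tested. CCAAT was frequent in both, with 75.6% and 64.3% against 37.6%. These patterns do not contain one another. A match describes letters and is not a bound site.

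The CHR of Bub1b began 41 bases after the start site and that of Plk1 31 bases after it, and each is shown in 30 bases with the motif in capitals. The Bub1b stretch is chr2:118598231-118598260 (plus strand) and the Plk1 stretch chr7:122159453-122159482 (plus strand). Ccna2 is not in the promoter table, so Kif22 came next by size of fall. Its CHR nearest to the start site lay on the opposite strand 17 bases before it and its nearest CCAAT box 54 bases before it. The stretch shown is chr7:127042391-127042570 (minus strand), from 150 bases before to 30 after the start site, with both motifs in capitals as they read on the strand of the gene.
Bub1b: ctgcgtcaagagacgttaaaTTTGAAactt
Plk1: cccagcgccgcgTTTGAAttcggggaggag
Kif22: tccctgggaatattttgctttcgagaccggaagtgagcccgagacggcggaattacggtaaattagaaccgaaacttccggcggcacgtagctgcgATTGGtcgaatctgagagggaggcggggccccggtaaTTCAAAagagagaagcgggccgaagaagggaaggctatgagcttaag

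On the side of the rises, the p53 half-site was searched in the promoters of Cdkn1a, Cd80 and Sulf2, the p53-list genes with the largest rises and a window. Cdkn1a has 2 windows. The upstream one held 2 half-sites, 73 and 51 bases before its start site, and the other held none. The upstream stretch is chr17:29090829-29091008 (plus strand) and is shown with the half-sites in capitals, because it belongs to the gene that made the largest rise of the lists.
Cdkn1a: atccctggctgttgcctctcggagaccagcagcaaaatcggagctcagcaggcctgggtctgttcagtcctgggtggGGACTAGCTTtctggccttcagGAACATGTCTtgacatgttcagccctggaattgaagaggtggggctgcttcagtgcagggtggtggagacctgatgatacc
The Cd80 window and the 2 Sulf2 windows held no half-site. Over the p53 lists 18.2% of 121 windows held one, against 7% of windows of genes tested. Paired half-sites were in 1 of the 121 windows (0.826%), against 0.0364% of windows of genes tested. In the Cdkn1a stretch only exact matches to the half-site pattern are in capitals, so near matches stay in lower case. Sequence outside these windows was not searched.

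Genes of cholesterol and fatty acid synthesis, which SREBP factors switch on when sterols are short, fell as a group. Of 31 tested 18 fell and 0 rose (median -1.12 log2), and all 31 changes, as means over the lines, were below 0. Fdps, which makes farnesyl diphosphate, went from 130, 268 and 169 TPM to 51.4, 39.9 and 37.0 TPM (-2.07 log2). Cyp51, a sterol demethylase gene, fell by 1.88 log2. Scd2, a fatty acid desaturase gene, went from 1178, 1940 and 1101 TPM to 267, 562 and 344 TPM (-1.87 log2). Hmgcs1, whose product makes HMG-CoA, fell by 1.82 log2. Insig1, whose product holds SREBP factors inactive, fell by 1.85 log2, with an adjusted p of 0.0516 without 4716-10 and of 0.0503 without 4716-14. The factor Srebf2 fell by 1.25 log2, while Srebf1 (-0.40 log2) and Fasn (-0.55 log2) were not called. The median of the list was -0.74, -1.49 and -0.92 log2 within the lines, lowest in 4716-10. Without that line 10 genes fell, and without the term for cell line 12 fell.

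Senescence is a lasting arrest known for high p21, loss of lamin B1 and HMGB proteins, lysosomal beta-galactosidase and secretion of inflammatory factors. Of 13 such markers tested, 1 rose (Cdkn1a) and 5 fell. Lmnb1, which encodes lamin B1, went from 211, 190 and 126 TPM to 69.2, 42.4 and 51.4 TPM (-1.67 log2, SE 0.180). Hmgb2 went from 202, 169 and 155 TPM to 45.1, 45.4 and 59.1 TPM (-1.80 log2) and Hmgb1 fell by 1.17 log2. Lmnb1 and Hmgb2 are also genes of dividing cells. The other 2 falls were Cdkn2a, whose p16 product rises in many senescent cells, and the ubiquitin hydrolase gene Uchl1. Cdkn2b, Cdkn2c and Cdkn1b, for other kinase inhibitors, were at -0.39, -0.64 and -0.02 log2 and not called. Glb1, the gene of the lysosomal enzyme behind the senescence stain, was 57.2, 60.2 and 83.8 TPM in Control and 67.3, 64.1 and 89.0 TPM in Restored (0.14 log2, not called). The study reported this stain in restored Type V cells. The stain reads enzyme activity, which RNA does not measure.

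Of 28 lysosome genes 4 rose (14.3%, against 5.74% of all genes tested) and 0 fell (median 0.35 log2). The median was 0.16 log2 without 4716-10 and 0.58 log2 without 4716-14, where 5 rose. The 4 rises were Aga (1.62 log2), Tpp1 (1.52 log2), Ctsd (1.42 log2) and Man2b1 (1.28 log2), which encode an amidase, 2 proteases and a mannosidase. Ctsd, for cathepsin D, was among the abundant genes and went from 931, 959 and 1406 TPM to 3271, 2601 and 2834 TPM. Of 32 secreted factors of senescence tested 4 rose (12.5%, against 5.74% of all genes tested) and 1 fell (median 0.24 log2). There were 5 rises and 2 falls without 4711-11 (median 0.03 log2), 5 and 4 without 4716-10 (median 0.0042 log2), and 2 and 1 without the term for cell line. The rises were Gdf15, the cytokine Lif (9.17, 16.3 and 16.1 TPM to 53.1, 96.4 and 53.3 TPM, 2.19 log2) and the EGF-family ligands Areg (1.92 log2) and Ereg (1.36 log2). Without the term for cell line Areg and Ereg had adjusted p of 0.0511 and 0.219. The chemokine gene Cxcl10 fell from 21.8, 25.1 and 35.6 TPM to 1.26, 9.12 and 5.09 TPM (-2.43 log2, SE 0.462, adjusted p 0.000626). Il6 was 0.190, 10.9 and 0.198 TPM in Control and 0.0829, 13.2 and 0.294 TPM in Restored (0.08 log2, not called). Il1b was listed at 0 in the 6 libraries. Cxcl1 and Cxcl5 were abundant in 4716-10 in both states and changed in different directions in different lines, and neither was called.

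Type V cells expressed mesenchymal genes before restoration, with Vim at 3503, 4789 and 4908 TPM in Control. Of 32 mesenchymal genes tested 9 fell and 1 rose (median -0.22 log2). Mgp, an extracellular inhibitor of calcification (chromosome 6, 136872435 to 136875823, minus strand), made the largest fall of all genes. It went from 292, 210 and 253 TPM to 9.95, 20.2 and 13.1 TPM (-4.08 log2, SE 0.241, adjusted p 6.83e-09), which is 16.9-fold on this scale. Col1a2, a chain of type I collagen, went from 19.0, 80.7 and 170 TPM to 6.36, 11.6 and 6.89 TPM (-2.86 log2). Col3a1, the chain of type III collagen, went from 34.6, 6.34 and 20.8 TPM to 16.5, 0.518 and 0.417 TPM (-2.41 log2). Postn, a matrix protein gene of activated stroma, was 22.7, 1.35 and 1.68 TPM in Control and 4.54, 0.134 and 0.0463 TPM in Restored (-1.5 log2). Col1a1, the other chain of type I collagen, was lower in every line but by unequal amounts, from 103, 349 and 11.8 TPM to 94.7, 136 and 0.698 TPM (-1.46 log2, SE 0.365). Mmp2, a gelatinase gene, was the rise (1.3, 1.91 and 40.0 TPM to 4.44, 8.16 and 70.1 TPM, 1.23 log2). Vim (-0.17 log2), Zeb1 (0.30 log2) and Snai2 (0.13 log2), the last 2 being factors of the mesenchymal state, were not called.

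The lines did not behave alike in this group, and most of its calls rest on the term for cell line. Without that term 2 genes fell, Mgp and Col1a2, and 0 rose. With the 6 libraries alone and the term kept, 3 fell. In 4711-11 several matrix genes were higher with restoration, among them Fn1 (1169 to 3025 TPM), Tnc (116 to 534 TPM) and Acta2 (104 to 361 TPM). In the other lines Fn1 went from 1108 to 1015 TPM and from 832 to 613 TPM. Without 4711-11 the median of the list was -0.63 log2 with 11 falls, and without 4716-14 it was -0.14 log2 with 6. Of the 7 fibroblast markers checked in these cultures, 5 were tested and 3 fell, Col1a2, Col1a1 and the receptor gene Pdgfrb (6.87, 36.7 and 143 TPM to 2.60, 9.13 and 61.3 TPM). Their summed TPM was 296, 499 and 368 in Control and 537, 195 and 90.3 in Restored, and its part in the matrix falls was not tested. Lum, a defining fibroblast gene, was at 0 in the Restored libraries and at most 0.844 TPM in Control, while Dcn was 62.1, 28.0 and 24.7 TPM in Control and 71.9, 36.3 and 19.5 TPM in Restored. Of 7 leukocyte and 5 endothelial markers, 2 and 0 reached 1 TPM in any of the 6 libraries. The leukocyte genes Ptprc, Cd3e and Adgre1 were below 0.1 TPM throughout, and Cd68, a lysosomal protein gene, rose by 1.28 log2. The summed TPM of the leukocyte markers was 10.8, 7.97 and 8.64 in Control and 16.3, 21.4 and 32.1 in Restored, nearly all of it Cd68.

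**Figure D4:**
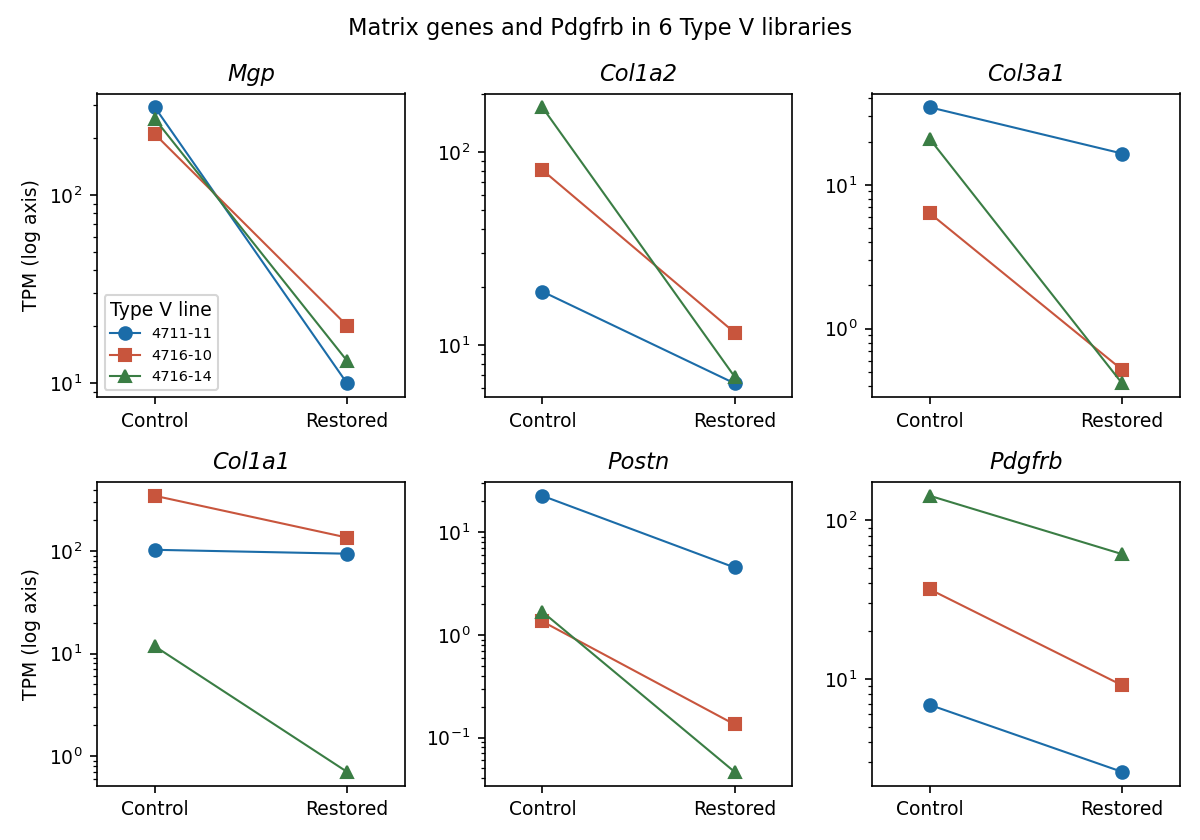
TPM (log axis, its own range in each panel) of 5 matrix genes and Pdgfrb in the Control and Restored libraries of the 3 Type V lines. Mgp and Col1a2 were lower with restoration in every line, and Col1a1 differed little in 4711-11 (103 and 94.7 TPM) but fell from 11.8 to 0.698 TPM in 4716-14.

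Of 27 epithelial genes tested 5 rose (18.5%, against 5.74% of all genes tested) and 1 fell, and the median was 0.10 log2. Itgb4, an integrin gene of hemidesmosomes, went from 1.33, 9.85 and 10.2 TPM to 27.8, 54.9 and 203 TPM (3.39 log2). The membrane protease gene St14 rose by 2.60 log2 from at most 0.266 TPM, and the cornified envelope gene Ivl by 2.05 log2 (adjusted p 0.148 without the term for cell line). Grhl1, which encodes an epithelial transcription factor, rose by 1.65 log2. Sfn, for the 14-3-3 sigma adaptor, was called higher by 1.05 log2, a call that ended without 4711-11 (adjusted p 0.0883), without 4716-10 (0.0579), with the 6 libraries alone (0.0872) and after quantile normalization (0.91 log2). With the 6 libraries alone 2 genes of the list rose and 0 fell, and with a pseudocount of 0.1 the counts were 8 and 2. Krt7 was called lower (-1.43 log2, adjusted p 0.0373), a call that was lost with a pseudocount of 0.1 (0.0741), without a filter (0.0627), with Type V libraries alone (0.112) and without the term for cell line (0.786). Cdh1, for E-cadherin, was 538, 246 and 130 TPM in Control and 391, 207 and 50.3 TPM in Restored (-0.69 log2, not called).

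The label of the cells as small cell lung cancer was checked against neuroendocrine and subtype genes. Of 20 such genes 10 did not pass the filter, and the 9 of these described here stayed below 1 TPM in the 6 libraries. Chga, for chromogranin A, was at 0 throughout. Neurod1, Calca and Scg3 were at 0 in Control and at most 0.0993 TPM in Restored. Dll3, Chgb, Scg2, Stmn2 and the tuft cell factor Pou2f3 were at most 0.870 TPM. These 9 genes were low or at 0. Some members that passed the filter were low as well, with Prox1 at most 0.118 TPM and Syp at 0.481 to 1.41 TPM in the 6 libraries. Mycl was at most 2.79 TPM. Other members were higher. Ncam1, a neural adhesion molecule gene, was 18.7, 11.6 and 21.1 TPM in Control and 27.3, 7.83 and 22.1 TPM in Restored. Yap1, which marks the subtype without neuroendocrine genes, was at 166, 571 and 126 TPM. Uchl1, a neuroendocrine marker that other cells also express, was the member that fell, from 40.9, 18.9 and 22.2 TPM to 6.58, 5.85 and 3.89 TPM (-2.08 log2, SE 0.253). Insm1 was 18.1, 1.59 and 5.30 TPM in Control and 49.6, 2.21 and 9.99 TPM in Restored (0.84 log2, not called). Foxa2 was at 0.62, Mycl at -0.71, Nkx2-1 at 0.25, Rest at 0.23, Syp at -0.19, Prox1 at 0.06, Ncam1 at 0.02 and Yap1 at 0.02 log2, and none was called.

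Interferon and antigen presentation genes gave 5 rises (20.8%, against 5.74% of all genes tested) and 0 falls among 24 tested (median 0.23 log2). There were 3 rises without 4711-11 (median 0.06 log2), 3 with the 6 libraries alone and 3 with 1 fall after quantile normalization (median 0.10 log2). Without 4716-10 there were 6 rises and 1 fall (median 0.50 log2), and without 4716-14 the median was 0.40 log2. Beside Tap1 these were Nlrc5, the activator of MHC class I genes (0.0691, 0.0515 and 0.479 TPM to 2.59, 1.17 and 8.73 TPM, 1.84 log2), the immunoproteasome gene Psmb9 (1.17 log2), Ifit3 (1.96 log2) and Irf7 (1.14 log2). The Irf7 call ended under the first 3 of these settings and that of Psmb9 after quantile normalization. The Ifit3 level went from 1.43, 5.25 and 2.81 TPM to 40.6, 11.8 and 5.42 TPM, so its rise was mostly in 4711-11, and without the term for cell line its adjusted p was 0.0994. B2m (0.56 log2), H2-D1 (0.76 log2) and H2-K1 (0.09 log2), which make up MHC class I at the cell surface, were not called. Isg15, a common marker of an interferon response, was at 0.13 log2 and not called.

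The largest rises of all genes reached beyond the lists. Atg9b, a relative of the autophagy membrane protein gene Atg9a, went from 0.409, 1.00 and 3.61 TPM to 214, 71.0 and 447 TPM (6.34 log2, SE 0.335). Svop, which encodes a synaptic vesicle protein, went from 0, 0.0532 and 0.0495 TPM to 77.0, 43.7 and 103 TPM (6.11 log2). 1700007K13Rik, a gene named by its clone, rose by 6.08 log2. The carboxylesterase genes Ces2e and Ces2g rose by 5.79 and 5 log2, and because such paralogs share sequence their reads may be split between them. For Ces2g the adjusted p was 0.117 without the term for cell line. Ckmt1, a mitochondrial creatine kinase gene, rose by 5.07 log2 and Sytl1, of vesicle transport, by 4.90 log2. Mmp15, a membrane metalloprotease gene, rose by 4.58 log2. Inka2, for an inhibitor of the Pak4 kinase, rose by 4.16 log2 and 4833427G06Rik by 4.34 log2. Cdkn1a, Cd80 and Sulf2 were also among the 15 largest rises. Gm15987, an antisense gene inside Clec2g on chromosome 6 (128951204 to 128975029), went from 0.147, 0.657 and 0.306 TPM to 14.1, 32.4 and 33.6 TPM (4.26 log2). The kit marks strand, but the counting is not described for strand, so reads of the gene and of Clec2g may not be separated.

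The largest falls after Mgp were Peg10 and Capn6. Peg10, an imprinted gene of retrotransposon origin, went from 718, 61.1 and 121 TPM to 41.0, 5.36 and 11.9 TPM (-3.54 log2). Capn6, a calpain relative without protease activity, went from 14.4, 7.67 and 185 TPM to 0.274, 0.269 and 18.5 TPM (-3.21 log2). Both fell within each line, and without the term for cell line their adjusted p were 0.109 and 0.0988. H19, an imprinted long noncoding RNA gene, fell by 2.52 log2 from 1.51, 11.0 and 13.2 TPM. Aspa, which encodes aspartoacylase, fell by 2.73 log2, Shcbp1, a gene of dividing cells, by 2.50 log2 and 2010204K13Rik by 2.47 log2. Cd74, the invariant chain of MHC class II, fell by 2.52 log2 with an adjusted p of 0.0659 without the term for cell line. Sprr2a3 (-2.87 log2) has close copies in the Sprr2 cluster that can share its reads, so its value is uncertain. Rpph1 (-3.01 log2) and Mir6913 (-2.52 log2) are short RNAs that mRNA libraries capture poorly. Mir6913 was at 0 in the Restored libraries, and its change under CsA was 0.92 log2 and not called.

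The same contrast with CsA in both groups uses 6 other libraries of the same lines. There 709 genes rose (5.03%) and 415 fell (2.94%). Of the 809 rises without CsA 608 (75.2%) were also called rises with it, and 330 of the 413 falls (79.9%) were also called falls. In the other direction 85.8% of the rises and 79.5% of the falls with CsA were called without it. No gene was called in opposite directions. Cdkn1a rose by 4.51 and Mgp fell by 4.18 log2 with CsA. The mitosis list had 43 falls and a median of -2.46 log2 with CsA, and the replication list 6 falls and -0.40 log2.

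Restoration in Type V was then set against restoration in Type D by the difference of the changes. With all 24 libraries the signed difference, Type V minus Type D, was called above 0 for 184 genes (1.3%) and below 0 for 160 (1.13%), together 2.44%. These are named larger and smaller in Type V by sign, not by strength of response. A deeper fall in Type V thus counts as smaller, and a deeper fall in Type D as larger. The split depends on scaling, since median-ratio scaling gave 221 and 121. These calls rest on the CsA libraries: in the 12 Control and Restored libraries without them, a comparison chosen after the data were seen, 2 genes were larger and 3 smaller in Type V, at 2190 genes of unadjusted p under 0.05. Without the term for cell line 1 was larger and 3 were smaller, at 540 genes of unadjusted p under 0.05. The adjusted p with 12 libraries is therefore given for the single genes that follow. Of the 184 genes, 54 rose in Type V and 91 fell in Type D, and of the 160 genes 38 fell in Type V and 91 rose in Type D.

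The difference between types for Mgp was -4.21 log2 (SE 0.340, limma adjusted p 1.35e-05, and 0.0412 with 12 libraries), but its mean TPM in Type D was 0.104 in Control and 0.208 in Restored, a level from which no fall could be seen. The same holds for Capn6 (difference -3.12 log2, 0.0412 with 12 libraries) and for Col1a2, Col3a1, Postn and Pdgfrb, whose means in Type D were at most 0.0185 TPM in both groups. With 12 libraries the adjusted p of these was 0.16 for Col1a2, 0.198 for Col3a1, 0.135 for Postn and 0.121 for Pdgfrb. Gm15987 had a rise in Type V and none in Type D, where it was 0.485 TPM in Control and 0.338 TPM in Restored (difference 4.41 log2, SE 0.348, adjusted p 1.35e-05, and 0.0204 with 12 libraries). Cyp4b1, a monooxygenase gene, was not called in Type V (-0.59 log2) but was 19.8 ± 8.13 TPM in Type D Control (SD, n = 3) and 0.799 ± 0.335 TPM in Type D Restored (difference 2.89 log2, adjusted p 0.000629, and 0.0452 with 12 libraries). The fifth gene called in both comparisons was the casein gene Csn3, which is outside the rule for named genes and was named after its values were seen. It was listed at 0 in the 6 Type V libraries.

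Over the p53 lists the median change was 1.41 log2 in Type V and 1.41 log2 in Type D. Mdm2 rose less in Type V (difference -1.01 log2, adjusted p 0.00746), a call that was not kept with 12 libraries (0.0907). The difference for Cdkn1a was 0.63 log2 (SE 0.188, adjusted p 0.0616, and 0.221 with 12 libraries) and for Trp53 -0.12 log2 (SE 0.165, adjusted p 0.721, and 0.795 with 12 libraries). Mitosis genes fell less in Type V for 6 of 45 genes with all libraries, where the difference was above 0 for 1.3% of all genes tested. The medians were -2.05 log2 in Type V and -2.93 log2 in Type D. The difference for Plk1 was 1.23 log2 (adjusted p 0.0764, and 0.291 with 12 libraries), and none of the 6 kept its call with 12 libraries. The inflammatory genes Mmp10 (difference -3.76 log2) and Csf2 (-3.75 log2) rose in Type D and were not called in Type V, with adjusted p of 0.00684 and 0.0101 and, with 12 libraries, 0.108 and 0.146. Lilr4b, an immune receptor gene, was at 0 in 5 of the 6 Type V libraries and rose in Type D (difference -4.36 log2, adjusted p 0.000209, and 0.0737 with 12 libraries).

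**Figure D5:**
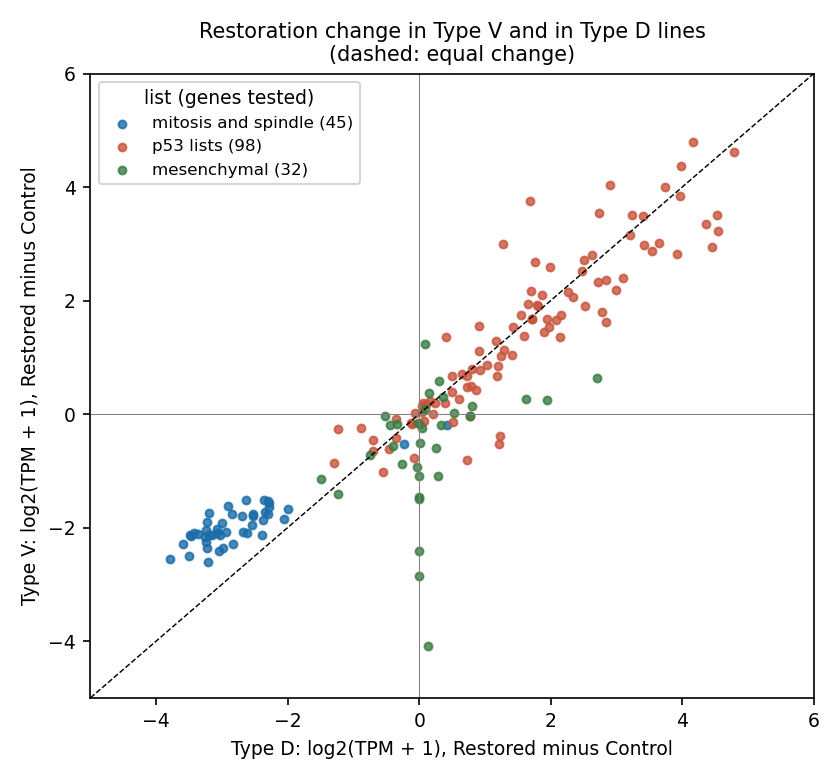
Change with restoration in Type V lines (vertical axis) against the change in Type D lines (horizontal axis), both as log2(TPM + 1), Restored minus Control, for 45 mitosis, 98 p53-list and 32 mesenchymal genes; the dashed line marks equal change. Mitosis genes lie above the line (medians -2.05 and -2.93) and p53-list genes around it. Of the called mesenchymal falls, Mgp, Col1a2, Col3a1, Postn and Col1a1 lie near 0 of the Type D axis. Col6a2 fell in both types (-1.41 log2 in Type V and -1.24 log2 in Type D).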

How the data were processed

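RNA was measured by stranded mRNA sequencing (single-end) of 24 libraries, 3 lines of each of 2 types with 4 treatments per line. The authors deposited TPM per gene for all libraries in 1 table. The study's methods name Kallisto or HISAT2, the submitters' processing notes name HISAT2, mm10 and GRCm39, and which of these made the table is not given in the sources used here. TPM keeps no read depth, so no counting interval was computed. The table gave 25239 genes, and 0 columns of per-sample values were left out.

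Genes that reached 1 TPM in 3 or more libraries (14104) were tested on log2(TPM + 1) with limma 3.58.1 (R 4.3.3, trended empirical Bayes, 12 residual degrees of freedom) in 1 fit of all 24 libraries, with the cell line as a block. P-values were adjusted by the Benjamini-Hochberg method over all genes tested. Libraries of a line are paired because they come from the same line. Their deviations from the group means correlated with r of 0.739 to 0.810 in the 3 pairs. Between lines r was -0.698 to -0.261, but subtracting each group's mean draws these values below 0 in any data, so they do not test the pairing. The lines are separate tumor-derived cultures with 1 library per treatment. The Type V lines 4716-10 and 4716-14 share the first number of their names, as do the Type D lines 4711-1 and 4711-18. The labels do not say whether lines with a shared number come from the same mouse. With the block, p-values measure the spread of treatment changes between lines, pooled over both types and all treatments. Beyond the block, the libraries of a line with and without CsA are treated as independent, which they may not be. The limma adjusted p of Trp53 was 6.29e-12 with all libraries and 4.93e-05 in the 12 without CsA. The fit was tested on simulated data.

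Named genes were Trp53, Cdkn1a and Mdm2, the 15 largest rises and 15 largest falls moving the same way in 3 lines, called members of each gene list (values for up to 6 of them), the Rb family and neuroendocrine lists irrespective of change, and the 5 largest type differences each way. Other list members are given where they were not called. Some genes that the rule takes are not reported here. The members and lists were chosen with earlier results of these data known. Alternatives were no block, fewer libraries, another pseudocount, filter or scaling, and leaving out each line. Positions are from GENCODE M21 (GRCm38) and promoters from RefSeq (GRCm38.p6).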

Additional observations from a re-analysis of the deposited data

Results flagged for a closer look

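These genes were singled out because their change with restoration differed between Type V and Type D lines by a test of the difference itself (limma with all 24 libraries, adjusted p under 0.05 and at least 1 log2). Values are the Type V change minus the Type D change in log2(TPM + 1). In the 12 libraries without CsA only Gm15987, Cyp4b1, Mgp and Capn6 of them kept the call.

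The difference was above 0 for Gm15987 (4.41), Vsig1 (3.51), Cyp2s1 (3.09), Mir5100 (3.09), Cyp4b1 (2.89), Ces2g (2.87), Ckmt1 (2.17), Crip2 (2.07), Svop (1.79) and Grhl1 (1.32). Vsig1 was 0, 6.62 and 0.115 TPM in Type V Control, levels from which a fall like that in Type D could not be seen. In 4716-10, the line that expressed it, it changed by -1.99 log2. Its mean TPM in Type D was 80.3 in Control and 3.81 in Restored.

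It was below 0 for the matrix and stromal genes Mgp (-4.21), Col1a2 (-2.85), Col3a1 (-2.40), Postn (-1.5) and Pdgfrb (-1.40), which were at or near 0 TPM in Type D. Among genes of immune signaling and proteolysis it was below 0 for Lilr4b (-4.36), Mmp10 (-3.76), Csf2 (-3.75) and Cxcl10 (-2.72). The p53 targets Mdm2 (-1.01) and Ddit4l (-1.51) also had a smaller change in Type V. The remaining genes were Mir199a-1 (-3.88), Capn6 (-3.12), Rpph1 (-2.82), Peg10 (-2.52), Uchl1 (-2.01) and 2010204K13Rik (-1.16). In Type D the mean TPM of Uchl1 was 0.811 in Control and 0.629 in Restored, and that of Capn6 was 0.0606 and 0. From such levels a fall like that in Type V could not be seen. Short RNAs such as Mir199a-1, Mir5100 and Rpph1 are poorly captured by mRNA libraries.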

How the results depend on the processing

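With no replicate block for the cell line, 478 genes rose and 268 fell in Type V, and 401 rose and 249 fell under CsA. The type comparison without the block gave 1 larger and 3 smaller changes, by the signed difference here and below. In the 12 libraries without CsA, chosen after the data were seen, the type comparison gave 2 and 3, while the rises and falls in Type V were 772 and 396. Leaving out each line in turn gave 734 to 953 rises and 413 to 474 falls in Type V. The type comparison then ranged from 71 to 268 larger changes and from 60 to 192 smaller ones, and was lowest without the first Type D line. Median-ratio scaling gave 221 larger and 121 smaller changes (64.6% larger, against 53.5%). Every other alternative kept the Type V counts within 1.5 times. No named gene called in Type V changed sign under any alternative run. The balance of the type comparison turned from more larger to more smaller changes without the block and with 12 libraries, and the median of the neuroendocrine list (0.04 log2) was -0.02 log2 without 4711-11. Of 133 named genes, 20 lost their call without the block and 14 with the 6 libraries alone, among them Col1a2 (0.0541), Fas (0.0527) and Aspa (0.0633). TPM gives no depth, so the counting error of low values is unknown.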
